A study of Mus musculus with 8 samples.

Results

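The normal mouse heart at postnatal day 12 was described from the 4 wild type libraries of a study that holds 8. Its other 4 libraries, from littermates lacking the oxygen sensors PHD2 and PHD3 in endothelial cells, were not used. The 4 members were taken by their genotype label, and all are whole hearts of C57BL/6 mice with no treatment named. The labels name no Cre driver or floxed allele in these controls, and whether the libraries are different animals is not stated, so the spread given here is that between libraries, called hearts 1 to 4. Values are FPKM, fragments scaled to transcript length and library size, and were quantile normalised by the authors over all 8 libraries. Sequencing depth is therefore unknown, and the 39 highest ranks hold the same ladder of values in every heart, so an FPKM there gives only a gene's place on that ladder. Of the genes, 32 lay on the ladder in all 4 hearts, among them Myl2, Actc1, Mb, Tnnt2, Tnni3, Myh6, Fabp3, Slc25a4 and Gapdh, and a ratio that includes such a gene carries this limit. Because FPKM is scaled to transcript length, levels can be compared between genes. Heart 4 stood apart from the others by carrying genes of the airway lining, described below. Some results that rest on heart 4 are also given without it.

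The second postnatal week is a turning point for the mouse heart. Cardiomyocytes replace fetal contractile and ion channel isoforms with adult ones, largely leave the cell cycle, build mitochondria and shift from glucose and lactate towards fatty acids as their main fuel, while milk supplies a diet rich in fat. The ventricles then work at high load without pause, which asks for steady supply of ATP from respiration and for rapid cycling of calcium. Coronary endothelium, fibroblasts, pericytes and resident macrophages are built up over the same weeks, and whole-heart RNA holds all of these cells.

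Promoters are shown for 4 heart genes whose levels are described below. They are the myosin heavy chains Myh6 and Myh7, neighbours on chromosome 14, the cardiac actin Actc1, and Nppa, which encodes atrial natriuretic peptide. Each promoter runs 5′ to 3′ on the strand of the gene. It spans 250 bases before to 50 bases after the RefSeq start on GRCm38.p6, the assembly of mm10. Gene positions elsewhere in this report come from GENCODE, which starts Myh6 and Actc1 farther upstream, at 54966927 and 114053548. For these 2 genes the whole window lies inside the GENCODE gene. The GENCODE starts of Myh7 and Nppa, 54994626 and 148000722, lie within their windows. Motif distances are from the RefSeq start. Capitals mark every match, on either strand, to TATAAA, to CATTCC (an MCAT element, read as GGAATG on the other strand), to a CArG box, or to GATA with A or T before it and A or G after it (a GATA site). A MEF2 site was searched as well. A match describes the letters only.
Myh6, chr14:54966558-54966857, minus strand: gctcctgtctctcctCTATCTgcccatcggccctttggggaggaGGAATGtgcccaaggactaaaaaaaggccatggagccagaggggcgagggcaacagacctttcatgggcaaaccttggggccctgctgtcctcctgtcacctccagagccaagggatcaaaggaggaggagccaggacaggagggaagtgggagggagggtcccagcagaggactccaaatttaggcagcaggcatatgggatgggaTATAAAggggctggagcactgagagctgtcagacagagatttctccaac
Myh7, chr14:54994577-54994876, minus strand: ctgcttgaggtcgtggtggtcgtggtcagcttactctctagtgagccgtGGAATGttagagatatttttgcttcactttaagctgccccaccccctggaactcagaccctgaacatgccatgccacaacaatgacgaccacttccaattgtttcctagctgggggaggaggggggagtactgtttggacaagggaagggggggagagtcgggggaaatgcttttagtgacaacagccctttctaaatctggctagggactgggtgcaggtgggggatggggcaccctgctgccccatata
Actc1, chr2:114052826-114053125, minus strand: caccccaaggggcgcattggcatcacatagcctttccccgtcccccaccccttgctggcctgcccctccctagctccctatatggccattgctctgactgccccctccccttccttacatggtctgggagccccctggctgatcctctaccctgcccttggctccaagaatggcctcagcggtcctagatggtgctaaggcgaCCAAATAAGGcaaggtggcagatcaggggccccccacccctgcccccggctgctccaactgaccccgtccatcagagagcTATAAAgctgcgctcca
Nppa, chr4:148000472-148000771, plus strand: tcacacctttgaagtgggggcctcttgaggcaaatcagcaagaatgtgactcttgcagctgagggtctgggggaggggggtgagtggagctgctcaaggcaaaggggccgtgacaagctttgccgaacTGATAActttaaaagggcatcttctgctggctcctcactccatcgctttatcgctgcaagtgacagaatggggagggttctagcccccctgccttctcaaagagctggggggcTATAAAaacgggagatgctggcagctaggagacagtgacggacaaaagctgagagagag
The window of Myh6 held a TATAAA at the RefSeq start, an MCAT element and a GATA site, and that of Myh7 held an MCAT element only. The window of Actc1 held a CArG box, the element bound by serum response factor, at 47 to 38 bases before the start, with a TATAAA after the start, and that of Nppa held a TATAAA and a GATA site. The CArG box reads the same class of letters on both strands, so its 2 matches in Actc1 are 1 place. Of 27025 promoters of this length, 1.57% held a CArG box, 14.6% an MCAT element, 30.2% a GATA site, 3.26% a MEF2 site and 14.2% a TATAAA. Among 23 contractile genes at 100 FPKM or more, 19 had a RefSeq promoter. A CArG box was in 5 of these (26.3%), an MCAT element in 7 (36.8%), a GATA site in 10 (52.6%), a MEF2 site in 2 (10.5%) and a TATAAA in 2 (10.5%). These shares describe the windows and were not tested.

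Contractile and respiratory genes filled the top of the expression list. Of 22518 genes in the table, 11322 averaged 1 FPKM or more in these hearts, 4931 averaged 10 or more, 657 reached 100 and 68 reached 1000 FPKM, and 5223 were listed at 0 in every heart. The median gene at 1 FPKM or more was at 8.08 FPKM. The 10 highest genes held 30.0% of the summed FPKM and the 100 highest held 54.8%. The quantile normalisation over all 8 libraries nearly fixes these shares, and that of the top 10 was 29.99 to 30.02% in single hearts. They thus describe the shared distribution, in which 4 mitochondrially encoded genes are at 0, rather than these hearts alone. With the mitochondrially encoded genes left out, these shares were 15.5% and 39.3%. Among the 100 highest genes, 9 were encoded by mitochondrial DNA, 37 were nuclear genes of the respiratory chain and ATP synthase, 11 belonged to the sarcomere, Z-disc and cytoskeleton, 11 to fuel use, 10 were ribosomal protein genes, 5 served energy transfer and oxygen storage, 3 were haemoglobins, 2 handled calcium and 12 were others.

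**Figure D1:**
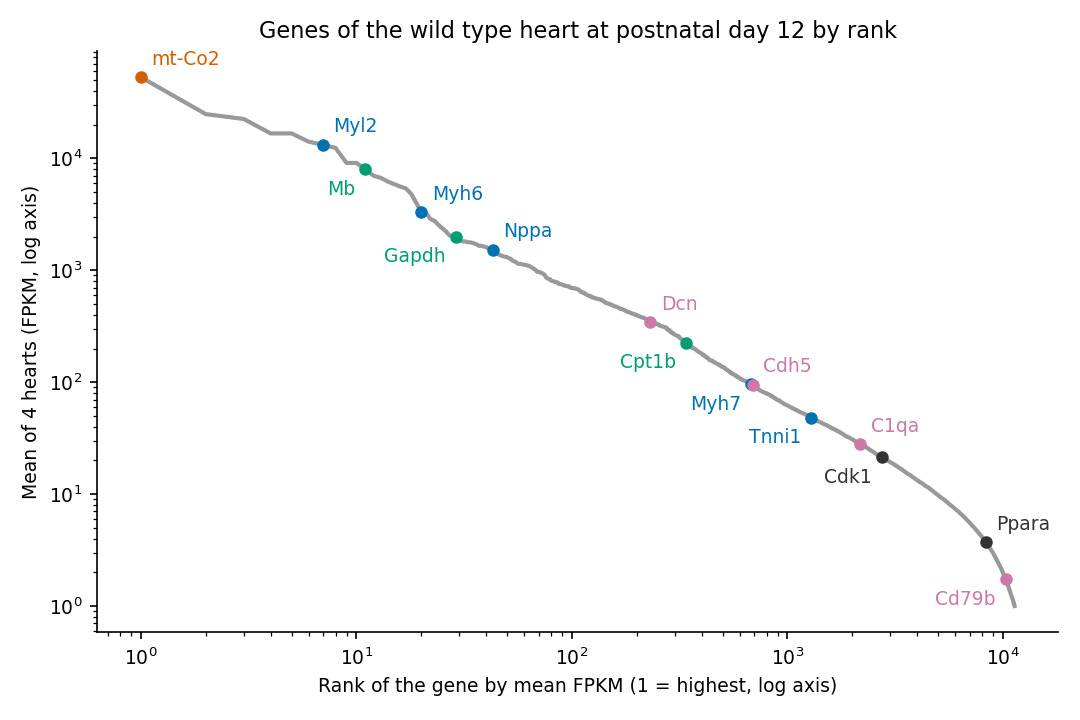
Mean FPKM of the 4 wild type hearts (log axis) against the rank of the gene (log axis), for the 11322 genes at 1 FPKM or more (grey line), with named genes as points: orange for a mitochondrially encoded gene, blue for contractile genes and Nppa, green for energy genes, pink for markers of other cells, black for a mitotic kinase gene and a regulator. The curve falls from mt-Co2 at 53136 FPKM past Myh6 at 3284 to Myh7 and Cdh5 at 95.7 and 94.9 FPKM.

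The 3 highest genes were mt-Co2, mt-Cytb and mt-Nd1, which encode a cytochrome c oxidase subunit, cytochrome b and a complex I subunit, and each held its rank in all 4 hearts. The other mitochondrially encoded genes at the top were mt-Nd3 and mt-Nd4 (both with a mean rank of 4.5), mt-Nd6 (6.5), mt-Nd2, mt-Nd5 and mt-Nd4l, all parts of complex I. The strand setting of the quantification was not found, so whether the value of mt-Nd6 includes reads from the opposite strand is unknown. The first nuclear gene was Myl2, the ventricular regulatory myosin light chain, at mean rank 7, followed by the tropomyosin gene Tpm1 and Actc1 at 9.75, and Mb, the gene of oxygen-storing myoglobin, at 11.5. Myl3, Tnnt2, Fabp3, Atp5b and Tnni3 also stood among the 20 highest, encoding the ventricular essential light chain, cardiac troponin T, the heart fatty acid binding protein, the catalytic beta subunit of ATP synthase and cardiac troponin I. Respiring cells also need mt-Atp6, mt-Atp8, mt-Co1 and mt-Co3, but each of these is listed at 0 throughout, so no level is read for them. Gm10222, at mean rank 15, is an unprocessed pseudogene of 294 bases on chromosome 1 (24612407 to 24612700), and all of its 31-base words occur in mt-Nd4l. Reads from the 2 genes cannot be told apart, so both values are uncertain. Nuclear copies of other mitochondrial genes were not searched beyond the annotated transcripts.

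Adult isoforms of the contractile apparatus exceeded their fetal partners in every heart. Myh6 (chromosome 14, 54941921 to 54966927), the fast alpha myosin heavy chain of the adult mouse heart, was at 3836, 3208, 3208 and 2883 FPKM in hearts 1 to 4. Its neighbour Myh7 (54970684 to 54994626), the beta chain of the fetal ventricle, was at 106, 94.2, 95.1 and 87.4 FPKM. Both genes were highest in heart 1 and lowest in heart 4, by 1.33-fold for Myh6 and 1.21-fold for Myh7 on FPKM + 1. The log2 ratio of Myh6 to Myh7 was 5.08 ± 0.06 (mean ± SD, n = 4, on FPKM + 1), a ratio of means of 34.3-fold. Myh6 thus made up 97.2% of the summed FPKM of the 2 chains.

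Troponin I, the inhibitory subunit of the thin filament, showed a wider gap with less even hearts. Tnni3 (chromosome 7, 4518305 to 4524229), the cardiac form, was at 3502, 3836, 3836 and 4725 FPKM. Tnni1 (chromosome 1, 135779434 to 135810989), the slow skeletal form that the fetal heart uses, was at 34.3, 32.8, 20.2 and 106 FPKM. Heart 4 stood well above the other 3 for Tnni1 and was also highest for Tnni3. The log2 ratio was 6.61 ± 0.84, and the share of Tnni3 ran from 97.8% in heart 4 to 99.5% in heart 3. Without heart 4 the mean log2 ratio was 6.99.

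Other contractile pairs had the same direction in all 4 hearts. Tnnt2 exceeded Tnnt1, the slow skeletal troponin T, by a log2 ratio of 7.41 ± 0.40, the highest mean among the 23 pairs. Actc1 exceeded Acta2, the smooth muscle actin that fetal cardiomyocytes also make, by 4.02 ± 0.47. Acta2 itself was at 482, 669, 825 and 363 FPKM, high in hearts 2 and 3 and low in heart 4, and whole-heart RNA cannot assign it to muscle of vessels or of the heart wall. The skeletal actin Acta1 was not found by its symbol among the deposited genes, so its planned pair with Actc1 was not measured. The 23 pairs are those measured of 24 listed.

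Genes typical of the ventricle exceeded their atrial partners in every heart. Myl2 exceeded its atrial counterpart Myl7 by a log2 ratio of 3.83 ± 0.60, and Myl3 exceeded Myl4, the atrial and fetal essential light chain, by 3.72 ± 0.47. Myl7 was at 1233, 599, 776 and 1257 FPKM and Myl4 at 596, 358, 493 and 615 FPKM. Both were lowest in heart 2 and highest in heart 4, with heart 1 next. The summed level of the 10 atrial markers, 3372, 2536, 3395 and 3922 FPKM, was also lowest in heart 2 and highest in heart 4. Their median, at 22.3, 37.7, 51.8 and 18.8 FPKM, was instead lowest in heart 4 and highest in heart 3. Nppa and Bmp10, atrial markers described below, did not follow the order of Myl7 and Myl4. Pln, which encodes the ventricular inhibitor phospholamban of the calcium pump, exceeded Sln, the gene of its atrial relative sarcolipin, by 3.04 ± 0.22. In bulk RNA, fewer cells of a type and less RNA per cell cannot be told apart.

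Channels showed the adult order too. Cacna1c, the L-type calcium channel pore, was at 14, 9.76, 12.3 and 9.76 FPKM against 1.57, 2.23, 2.57 and 1.10 for Cacna1h, a T-type channel of the fetal heart. Hcn2, a pacemaker channel gene, exceeded Hcn4, the form of the embryonic heart and the adult sinus node, by a log2 ratio of 2.21 ± 0.28, but Hcn4 was near 1 FPKM and this ratio moved to 3.06 with 0.1 in place of 1 added to each value. In all, the adult or muscle gene was higher in all 4 hearts in 22 of 23 measured pairs, the broad or fetal gene was higher in all 4 hearts in 0, and 1 pair was mixed. With 4 hearts the exact two-sided sign-flip permutation test cannot give a p under 0.125, so no single pair could pass 0.05.

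**Figure D2:**
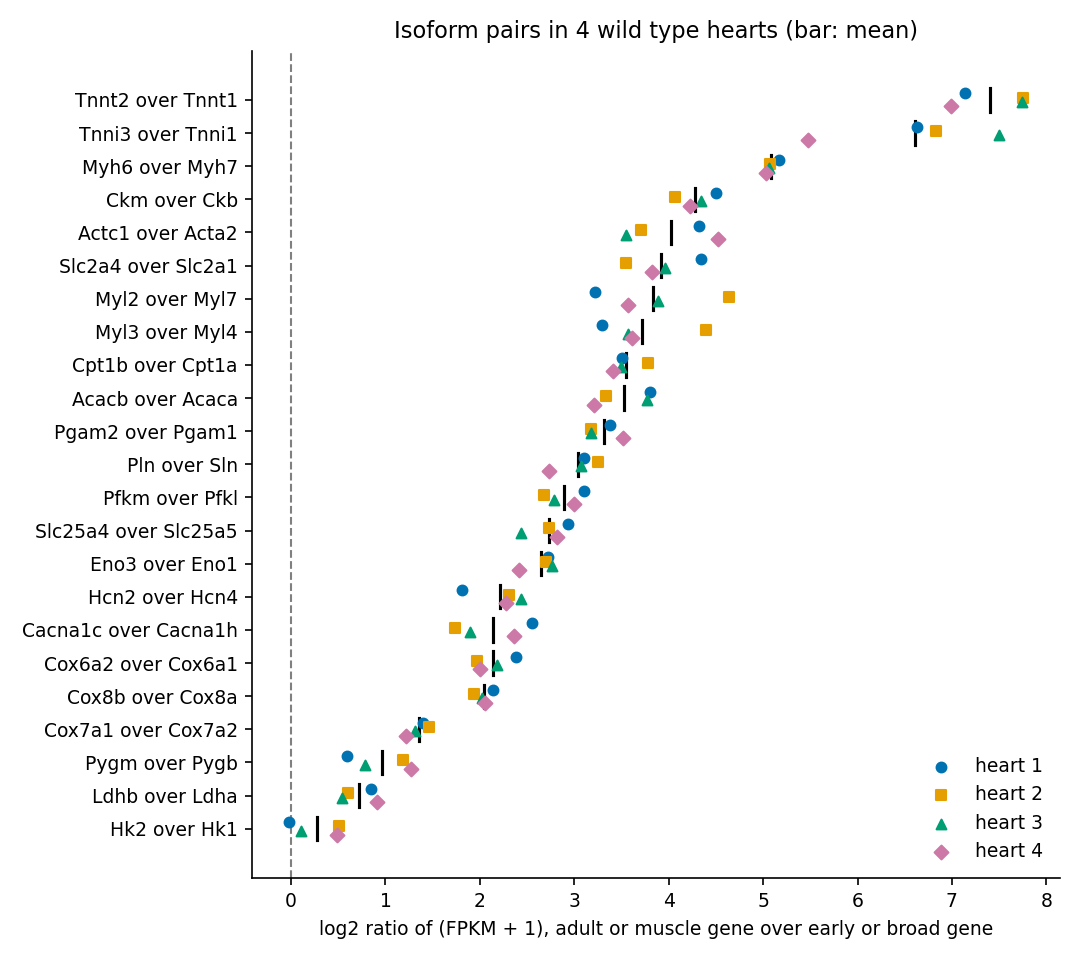
Log2 ratio of (FPKM + 1) of the adult or muscle gene over the early or broad gene for 23 pairs, with 1 point per wild type heart, a bar for the mean and a dashed line at equal levels. Tnni3 over Tnni1 spreads most, with heart 4 at 5.47 and heart 3 at 7.50, and Hk2 over Hk1 is the pair that touches the line.

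Metabolic isoform pairs ranged from steep to shallow, with mean log2 ratios from 4.28 down to 0.27. The insulin-responsive glucose transporter gene Slc2a4 was at 68.6, 58, 67 and 53.5 FPKM against 2.44, 4.05, 3.37 and 2.86 for Slc2a1, the transporter of fetal and proliferating tissue, a log2 ratio of 3.92 ± 0.33. Cpt1b, the muscle form of the enzyme that admits long-chain fatty acids to mitochondria, was at 239, 219, 215 and 225 FPKM against 20.1, 15, 18.2 and 20.3 for the liver and fetal form Cpt1a, a ratio of means of 12.2-fold. For both pairs every value of the adult form lay above every value of its partner. Acacb, whose product makes the malonyl-CoA that restrains Cpt1b, exceeded Acaca, its counterpart in lipid synthesis, by a log2 ratio of 3.53 ± 0.30.

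Muscle forms also led in glycolysis and energy transfer. Ckm, the muscle creatine kinase, exceeded the brain form Ckb by a log2 ratio of 4.28 ± 0.18, Pgam2 exceeded Pgam1 by 3.31 ± 0.17, Pfkm exceeded Pfkl by 2.89 ± 0.19 and Eno3 exceeded Eno1 by 2.65 ± 0.15. The heart form Slc25a4 of the carrier that exchanges ADP for ATP exceeded Slc25a5 by 2.73 ± 0.21. The heart forms of 3 cytochrome c oxidase subunits were ahead by less: Cox6a2 over Cox6a1 by 2.13 ± 0.19, Cox8b over Cox8a by 2.04 ± 0.08, and Cox7a1 over Cox7a2 by 1.35 ± 0.11.

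The smallest mean log2 ratios were those of glycogen phosphorylase, lactate dehydrogenase and hexokinase, at 0.96, 0.72 and 0.27. Ldhb, the heart form of lactate dehydrogenase, was at 825, 760.2, 802 and 746 FPKM against 459, 501, 553 and 398 for Ldha, so Ldhb supplied 62.2% of their sum. Pygm, muscle glycogen phosphorylase, was at 237, 274, 262 and 258 FPKM against 157, 119.6, 152 and 106 for the brain form Pygb, 66% of their sum. Hexokinase was the mixed pair. Hk2, the insulin-regulated muscle form, was at 45, 62.2, 55 and 52.4 FPKM and Hk1 at 45.7, 43.4, 51.1 and 37.1 FPKM, so that heart 1 had the 2 genes level while Hk2 led in the other 3. The mean log2 ratio was 0.27 ± 0.27, about the size of its own spread.

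Genes of fatty acid use were high. All 18 genes of the fatty acid oxidation list exceeded 10 FPKM and 15 exceeded 100, with a median of 265 FPKM, at the 97.3rd percentile of genes at 1 FPKM or more. Etfb, which passes electrons from acyl-CoA dehydrogenases to the respiratory chain, led with 700.3, 768, 674 and 736 FPKM. Hadhb and Hadha, the 2 subunits of the mitochondrial trifunctional protein, were at 835, 589.8, 696 and 636 and at 556, 388, 466 and 395 FPKM. Heart 1 was highest for both trifunctional subunits and heart 2 lowest. Acaa2, Acadl and Acadvl, the thiolase and the long-chain dehydrogenases, had means of 687, 606 and 498 FPKM. Acot2, a mitochondrial acyl-CoA thioesterase, was among the lowest of the list at a mean of 39.1 FPKM.

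Uptake and carriage of fatty acids spanned a wider range. All 17 genes exceeded 1 FPKM and 9 exceeded 100. Fabp3 was at 4725, 6459, 4725 and 6459 FPKM, values that belong to the shared ladder, and stood at mean rank 15.5. Fabp4, the fatty acid binding protein of capillaries and fat cells, was at 1594, 1553, 1323 and 1832 FPKM, and Cd36 and Lpl, the fatty acid translocase and lipoprotein lipase, had means of 434 and 414 FPKM. Slc22a5, the carnitine transporter, was among the lowest at 7.73 FPKM.

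Glycolytic genes were high too, and how they compared with those of fatty acid oxidation depended on the summary: their median was lower and their summed level, 7866 against 5829.9 FPKM, was higher. Of 22 genes, 21 exceeded 1 FPKM and 12 exceeded 100, with a median of 226 FPKM. Gapdh was at 2038, 2096, 2096 and 1707 FPKM and Aldoa, the muscle aldolase, at 1196, 1168, 1168 and 1039 FPKM. Heart 4 was lowest for both, and its summed glycolytic level of 7004 FPKM stood apart from the 8088, 8093 and 8280 FPKM of hearts 1 to 3. The median depended on the low gene Pfkfb1, at 0.696 to 1.15 FPKM: with every measured member counted it was 179 FPKM, and without heart 4, where Pfkfb1 passed 1 FPKM, it was 185 FPKM. At the low end, Slc2a1 and the regulator Pfkfb3 were at 3.18 and 2.22 FPKM.

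Among the genes of pyruvate entry, 1 stood out for its spread between hearts. Pdk4, a kinase that shuts pyruvate dehydrogenase when fat is burned, was at 419, 117, 285 and 357 FPKM, with heart 2 far below the other 3. Pdhb and Pdha1, the 2 subunits of the first enzyme of the complex it acts on, were at 479.6, 454, 489.9 and 407 and at 368, 283, 361 and 263 FPKM, and Mpc1 and Mpc2, the mitochondrial pyruvate carrier, had means of 330.5 and 364 FPKM. Counts past 2-fold, here and below, are on FPKM + 1, which damps the ratios of low genes. On that scale Pdk4 was the only gene of the 15 in its list to reach 2-fold between the highest and the lowest heart. Over all genes 1.85% did (210 of 11322). Low members of the list varied as well: Slc16a3, the lactate exporter of glycolytic cells, was at 1.64, 2.37, 2.07 and 1.30 FPKM and Pdp2, a phosphatase that switches the complex back on, at 1.55, 1.15, 1.84 and 0.603 FPKM. The median coefficient of variation (CV, the SD as a percentage of the mean) of the list was 12.9%, against 9.88% over all genes at 1 FPKM or more.

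The citric acid cycle and the malate-aspartate shuttle were high throughout. All 22 genes exceeded 10 FPKM, 20 exceeded 100 and 0 reached 2-fold between hearts, and the median was 337 FPKM. Mdh1, Mdh2, Idh2 and Sdhb were among the highest, at means of 1119, 964, 718 and 524 FPKM. Mdh1, the cytosolic malate dehydrogenase, was at 1357, 1039, 1233 and 846 FPKM, highest in heart 1 and lowest in heart 4. The lists of smaller fuels were lower. Ketone use was represented by Oxct1, the enzyme that commits ketones to oxidation, at 127, 117, 137 and 68.1 FPKM, with heart 4 at the bottom. Bckdha, of branched-chain amino acid breakdown, led its list at 64.4 ± 2.88 FPKM (n = 4).

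The respiratory chain was high throughout. All 36 nuclear genes measured for complexes III to V exceeded 100 FPKM, with a median of 1191 FPKM, and 35 of 36 complex I genes did, with a median of 423 FPKM. The median CV over the 4 hearts was 6.23% and 5.14%, against 6.61% over all genes at 200 FPKM or more, and 0 of the 72 genes reached 2-fold. In 5 of 36 and 1 of 36, 1 heart stood apart from the other 3 by the measure explained below, against 5.48% of all genes. Atp5b was highest, at mean rank 17, followed by Atp5g3, Cox6c, Ndufa4, Atp5g1 and Cox6b1. Ndufa11 was the lowest at 88.8, 102, 87.4 and 85.7 FPKM. The mitochondrial creatine kinase Ckmt2, which loads ATP energy onto creatine at the inner membrane, was at 846, 846, 835 and 684 FPKM, low in heart 4 only.

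**Figure D3:**
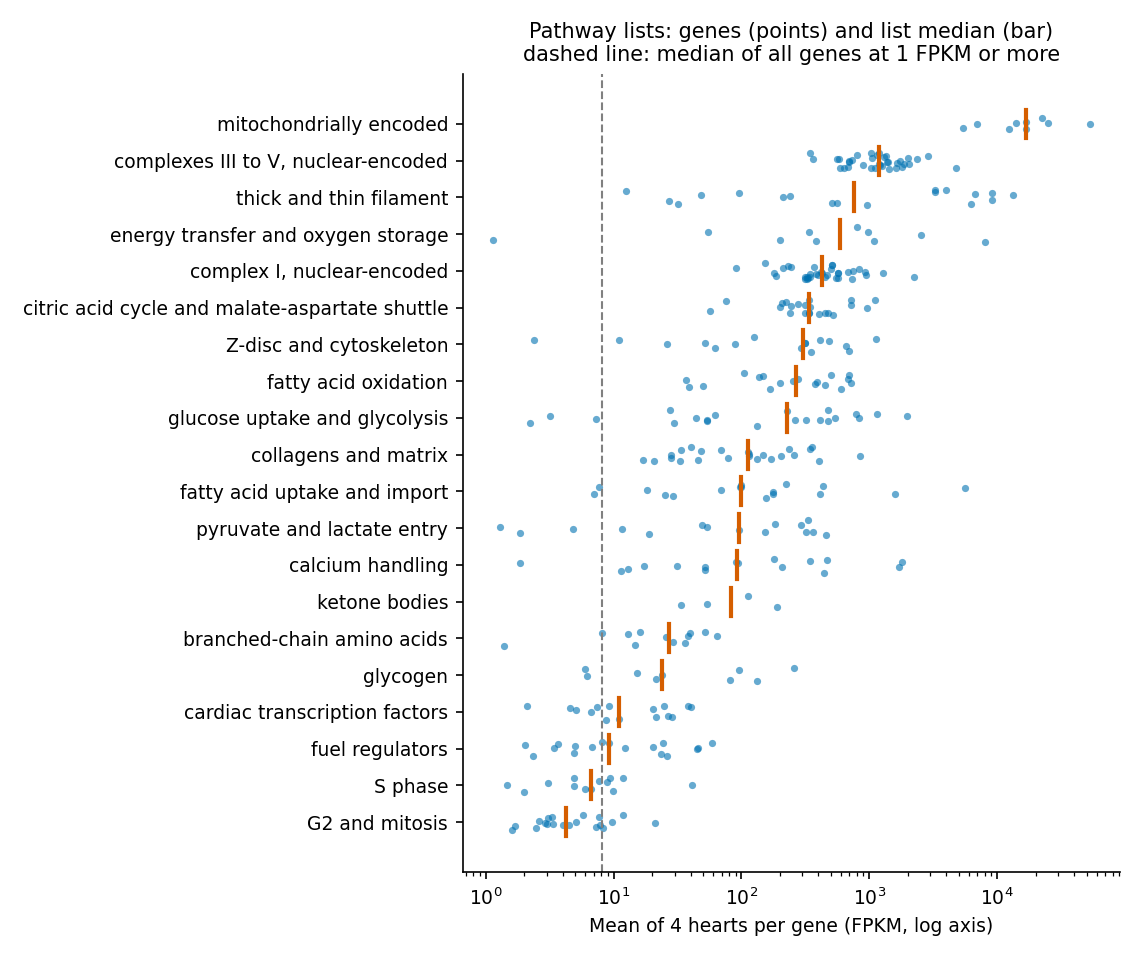
Mean FPKM over the 4 wild type hearts (log axis) for each gene at 1 FPKM or more (points) in 20 pathway lists, with the list median as a bar and the median of all genes at 1 FPKM or more, 8.08 FPKM, as a dashed line. Respiratory, contractile and fuel lists lie far to the right of the line and the 2 cell cycle lists to its left.

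Calcium handling genes differed more between hearts than respiratory genes did. Atp2a2, the calcium pump SERCA2, was at 2499, 1476, 1940.2 and 1323 FPKM, and Pln at 2006, 1428, 1744 and 1657 FPKM. Casq2, the calcium store protein, was at 508, 385, 509.7 and 370.0 FPKM. Heart 1 led for the pump and phospholamban, and heart 4 was lowest for the pump and for Casq2. Slc8a1, the sodium-calcium exchanger, was at 25.2, 13, 23.1 and 8.20 FPKM and was the only gene of 16 past 2-fold on FPKM + 1. S100a1, which tunes the pump and the release channel, was at 466, 462, 459 and 466 FPKM, with a CV of 0.748%. The median CV of this list was 18.6%, against 7.32% for all genes at 50 to 200 FPKM, where its median of 91.8 FPKM lies.

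Regulators of fuel use were far lower than the genes they are known to control. Of 17, all exceeded 1 FPKM, 8 exceeded 10 and 0 reached 100, with a median of 9.30 FPKM. Epas1, Thra, Esrra, Ppargc1a and Tfam were highest, at means of 59.4, 45.4, 45.2, 26.1 and 24.6 FPKM. Ppargc1a, the coactivator PGC-1alpha of mitochondrial biogenesis, was at 37.1, 16.3, 30.02 and 21 FPKM, with heart 2 lowest and heart 1 highest. It was the only regulator past 2-fold on FPKM + 1, a scale that damps the ratios of lower genes such as Ppara. Ppara, the fatty acid sensing receptor, was at 5.59, 2.75, 4.10 and 2.39 FPKM, in the same order of hearts except that heart 4 was lowest. Thra, the main thyroid hormone receptor of the heart, exceeded Thrb, at 2.02 FPKM, in every heart.

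Cardiac transcription factors were detected at modest levels. Gata4, Mef2a, Tbx20, Srf and Mef2d led the list with means of 40.1, 38.1, 28.6, 26.9 and 25 FPKM. Gata4 was at 41.5, 36.5, 41.4 and 41 FPKM, with heart 2 below the other 3. Hand1, a factor of the embryonic heart, was at 0 to 0.0811 FPKM, under 1 FPKM in all 4 hearts.

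Proliferation genes were low but present. Of 21 genes of G2 and mitosis, 20 exceeded 1 FPKM and 2 exceeded 10, with a median of 4.27 FPKM, below the 8.08 FPKM of all such genes. Cdk1, the mitotic kinase, was at 17.3, 24.6, 19.96 and 23.1 FPKM and Top2a, the topoisomerase of dividing cells, at 7.91, 14.4, 10.3 and 14.5 FPKM. Heart 1 was lowest for both. The same held for the summed level of the list, which was 95.8, 133, 117 and 128 FPKM. Of the S phase list, Pcna was at 36.4, 44.4, 40.6 and 43.1 FPKM and 2 of 14 genes exceeded 10 FPKM. Cdkn1a, the inhibitor p21, was at 50.5, 33.4, 31 and 30.2 FPKM, with heart 1 above the other 3. Which cell types carried the cycling genes was not tested.

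Fetal growth genes were mixed. Igf2, a fetal growth factor that is silenced in most mouse tissues after birth, was still at 128, 232, 214 and 183 FPKM, lowest in heart 1. Grb10, Mest, Igf2r and Plagl1, other imprinted genes of growth control, had means of 40.5, 35.4, 20.8 and 12.6 FPKM. Lin28a and Lin28b, RNA-binding proteins of the embryo, were under 0.05 FPKM in every heart, and 8 of the 13 genes measured exceeded 1 FPKM. Nppa was at 1246, 1323, 1786 and 1744 FPKM, with a mean rank of 41.75, and Nppb, which encodes the related B-type peptide, was at 158, 158, 175 and 219 FPKM. For both peptides hearts 3 and 4 were above hearts 1 and 2, though for Nppb hearts 1 and 2 were nearly level.

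The labelled tissue was checked against its defining markers. All 10 cardiomyocyte markers exceeded 10 FPKM, and their summed level was 48979.6, 55767, 50239.5 and 56578 FPKM in hearts 1 to 4. Ryr2, the calcium release channel, was the lowest of them at 61.6, 48.4, 59.4 and 39 FPKM. Of the skeletal muscle list, the fast myosin Myh4 was under 0.01 FPKM in every heart, the regulator Myod1 was listed at 0 in all 4, and Ckm, which the heart shares, gave nearly all of the summed level. Alb, which encodes liver albumin, was listed at 0 in all hearts.

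Endothelial and pericyte markers had median CVs of 7.79% and 7.14%, near the 8.16% of all genes at 10 to 50 FPKM, the range that holds the list medians of 38.3 and 20.5 FPKM. All 20 endothelial markers exceeded 1 FPKM and 19 exceeded 10, with a summed level of 999, 1079, 983 and 1123 FPKM. Cdh5 (chromosome 8, 104101625 to 104144511), the junction protein VE-cadherin, was at 97, 93.8, 93.5 and 95.2 FPKM and Pecam1 at 97.1, 90.9, 89.7 and 100.1 FPKM. The 4 hearts were within a few percent of each other for Cdh5, whose CV was 1.68%. Egfl7 and Gpihbp1, the latter the capillary anchor of lipoprotein lipase, led the list at 159 and 154 FPKM. The pericyte list summed to 378, 367, 368 and 365 FPKM, a range of 1.04-fold. Its highest gene Rgs5 was at 221, 219, 219 and 219 FPKM and had the smallest CV, 0.617%, of any gene at 10 FPKM or more outside the 3 highest mitochondrial genes, whose shared ladder values fix their CV at 0.

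Fibroblast and matrix genes were abundant. Dcn (chromosome 10, 97479609 to 97518143), the proteoglycan decorin, was at 342, 324, 373 and 337 FPKM. Col3a1, the type III collagen of young tissue, was at 387, 377, 479.6 and 373 FPKM and Postn, periostin, at 163, 239, 244 and 172 FPKM. Heart 3 was highest for all of these, and its summed fibroblast level of 1966 FPKM stood apart from the 1722, 1750 and 1734 FPKM of hearts 1, 2 and 4. Sparc, a collagen-binding matrix protein, led the matrix list at 852, 825, 852 and 861 FPKM, and Eln, elastin, ranged from 183 in heart 4 to 322 FPKM in heart 1.

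Markers of smooth muscle and lining cells differed between hearts, and not all in the same order. The smooth muscle list summed to 951, 1099, 1256 and 790.0 FPKM, most of it from Acta2 and Des, which encodes desmin and is shared with cardiomyocytes. Tagln, a smooth muscle calponin relative, was at 33.9, 34.1, 24.1 and 34.9 FPKM and Cnn1, calponin, at 4.32, 2.48, 1.25 and 5.04 FPKM. Heart 3 was lowest for Tagln and Cnn1 although it was highest for Acta2. The epicardial and mesothelial list summed to 53.2, 55.3, 57.5 and 105 FPKM. Heart 4 stood well above the other 3, and its list median was 11.2 FPKM against 3.01 to 3.57 FPKM. Of the 10 members, 4 had heart 4 apart and high: Msln, Krt19, Krt8 and Krt18, the last named after its values were seen. Wt1, the defining transcription factor, was at 4.58, 6.30, 5.94 and 6.06 FPKM. Msln, mesothelin, also a mesothelial marker, was at 13.3, 12.2, 12.6 and 21.7 FPKM. Krt19 and Krt8, keratins that airway epithelium also makes, were at 4.19, 3.06, 3.54 and 19.7 and at 1.71, 1.42, 1.37 and 11.4 FPKM.

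Immune cells were represented mainly by macrophages. Lyz2, C1qb, C1qa, C1qc and Csf1r, members of the macrophage list, had means of 41.2, 31.1, 28.1, 24.3 and 9.12 FPKM, and the list summed to 151, 166, 174 and 156 FPKM. Ccr2, of recruited monocytes, was at 0.295 FPKM. Of 14 lymphocyte genes measured, 2 exceeded 1 FPKM, the B cell genes Cd79b and Cd79a at 1.73 and 1.10 FPKM. The neutrophil genes S100a9 and S100a8 were at 3.11, 5.68, 5.51 and 15 and at 5.05, 4.97, 3.51 and 11.8 FPKM, highest in heart 4 for both.

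Globin genes and Alas2 differed widely between hearts. Hbb-b1, an adult beta globin gene, was at 680.2, 1293, 3011 and 1632 FPKM and the alpha globin genes Hba-a1 and Hba-a2 were at 547, 934, 2631 and 1218 and at 654, 899, 3502 and 1476 FPKM. Alas2, the erythroid enzyme of haem synthesis, was at 7.23, 15.5, 34.1 and 23 FPKM. All of these were lowest in heart 1 and highest in heart 3, and 5 of the 6 erythroid genes at 1 FPKM or more passed 2-fold, against 1.85% of all genes. Globin copies are nearly identical in sequence, so how the authors' quantification divided reads between them is uncertain. Klf1, a nuclear factor of red cell precursors, was at 0 to 0.0314 FPKM.

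**Figure D4:**
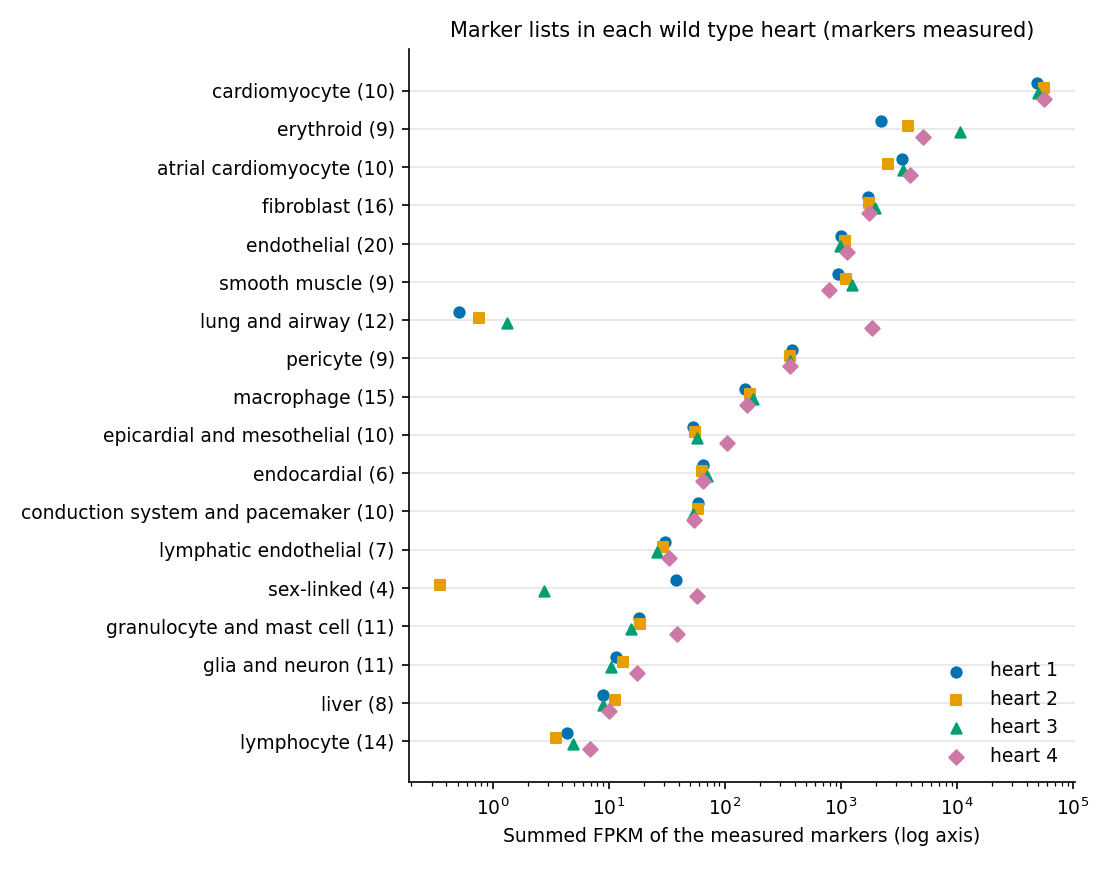
Summed FPKM (log axis) of the measured markers of 18 lists in each wild type heart, with the number of markers in parentheses. Cardiomyocyte, endothelial and pericyte points nearly coincide, while the lung and airway list is at 1845 FPKM in heart 4 and at 0.515 to 1.34 FPKM in hearts 1 to 3.

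Genes of the airway lining appeared in heart 4 and nearly nowhere else. Scgb1a1, the main secretory product of club cells, was at 0, 0, 0.323 and 1030.4 FPKM, so that heart 4 alone carried it at the level of an abundant gene. Scgb3a1 and Scgb3a2, other airway secretoglobins, were at 0.101, 0.121, 0.599 and 544 and at 0, 0, 0.0507 and 206 FPKM. Cyp2f2, a club cell cytochrome P450, was at 0, 0, 0.0201 and 53.9 FPKM. Hearts 1 and 2 were listed at 0 for Scgb1a1, Scgb3a2 and Cyp2f2. Sftpc and Lamp3, which define alveolar type II cells, were at 0, 0, 0.107 and 0 and at 0, 0, 0 and 0 FPKM, so these markers were at or near 0 in heart 4 too, and Sftpa1 reached 3.83 FPKM there. Of 12 genes in this list, 4 reached a mean of 1 FPKM, and they did so through heart 4 alone. Reg3g, Wfdc2, Cbr2 and Aldh1a1, known from secretory or airway epithelium among other tissues, were also highest in heart 4, at 81.8, 73.2, 129 and 43.5 FPKM against highest values of 0.0566, 0.747, 11.5 and 7.31 FPKM elsewhere. The part of airway RNA in the other values of heart 4 was not tested.

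Most genes differed little between the 4 hearts. Of 11322 genes, 210 (1.85%) had a highest heart at least 2-fold above the lowest on FPKM + 1, and 620 (5.48%) had 1 heart standing apart from the other 3, where the gap to its nearest neighbour took up most of the range (Dixon's ratio above its 95% critical value for 4 samples). Heart 4 was the highest in 121 of the 210 genes and the lowest in 51, while heart 1 was the lowest in 63, and heart 4 stood apart in 320 of the 620. The limit of 1 FPKM on the mean lets in genes through 1 heart alone: in 48 of the 121 and in 39 of the 320, the mean of the other 3 hearts was under 1 FPKM. Without heart 4, the number past 2-fold was 63 of 11298. Across genes, Spearman's rho between pairs of hearts was 0.986 to 0.992 among hearts 1 to 3 and 0.974 to 0.978 between heart 4 and each of the others; genes are not independent replicates, and no test was made. The median CV fell from 16.8% for genes at 1 to 2 FPKM to 6.61% for those at 200 FPKM or more.

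**Figure D5:**
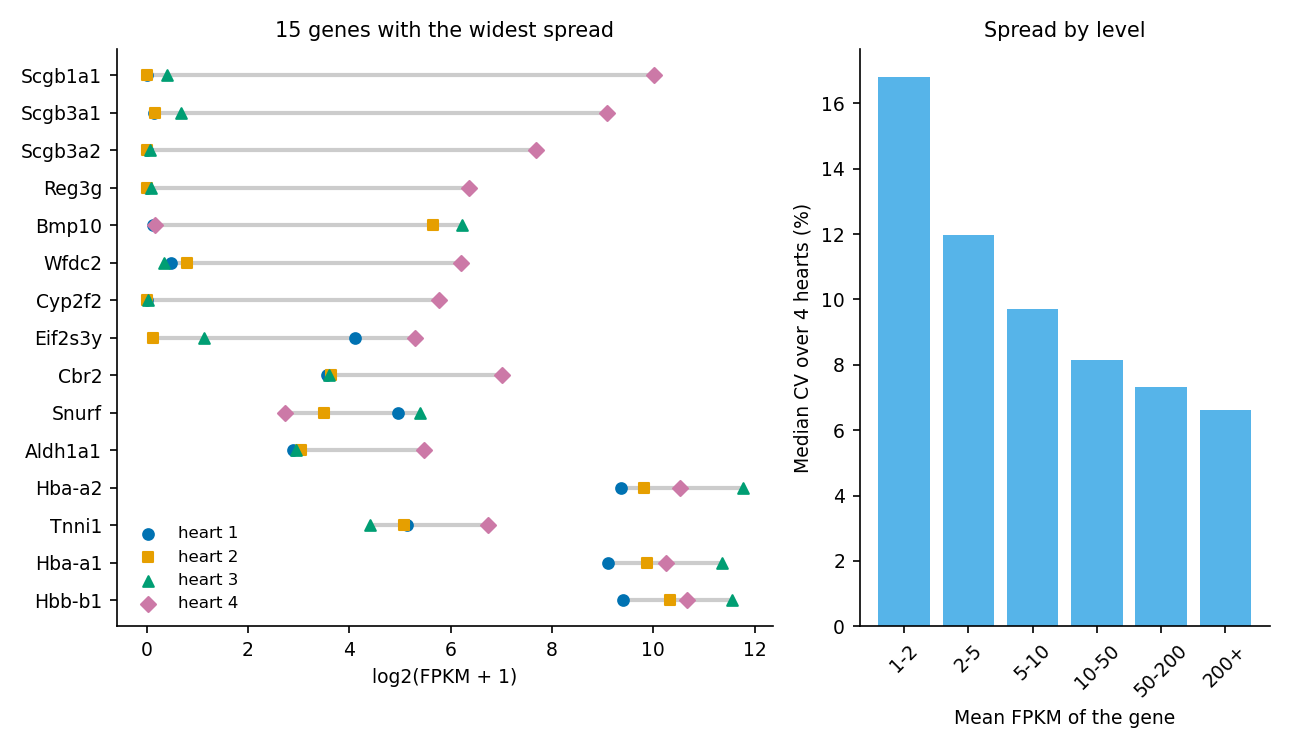
Left, log2(FPKM + 1) in each wild type heart for the 15 genes with the widest spread among those with a mean of at least 10 FPKM, with a grey line from lowest to highest. Right, the median CV over 4 hearts by mean FPKM of the gene. Heart 4 is far to the right for the secretoglobins, hearts 1 and 4 are at the left for Bmp10, and heart 3 leads for the 3 globin genes.

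The 15 widest genes fell into few sets. Apart from the 8 airway and secretory genes named above and the 3 globins, they were Bmp10, Eif2s3y, Snurf and Tnni1. Bmp10, a growth factor that the postnatal heart makes in the right atrium, was at 0.0868, 49.6, 74.2 and 0.121 FPKM, near 0 in hearts 1 and 4. Snurf, an imprinted gene that overlaps Snrpn and shares its reads, was at 30.3, 10.3, 41.1 and 5.60 FPKM, which is uncertain for that reason. Eif2s3y, on the Y chromosome, was at 16.3, 0.0947, 1.20 and 38.1 FPKM and Ddx3y, also on that chromosome, at 14, 0.138, 1.10 and 15 FPKM. Both were high in hearts 1 and 4, and the labels give no sex. Bmp10 was high in hearts 2 and 3 instead, and with 4 hearts these differences and any other between the libraries cannot be told apart.

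The steadiest genes at 10 FPKM or more were of several kinds. Besides Rgs5 and S100a1 they included Sparcl1, a matricellular gene of vessels, at 187, 186, 188 and 189 FPKM with a CV of 0.744%, and Rasgrp3, a nucleotide exchange factor of endothelium, at 11.6, 11.7, 11.8 and 11.7 FPKM with a CV of 0.634%. Rapgef1, Cbx6 and Tspan14 completed the set, at means of 27.8, 10.6 and 12.6 FPKM. The smallest CVs were 0.617 to 0.759%.

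Transcript length moved with heart. In the fifth of genes with the shortest transcripts, the median difference of a heart from the gene mean was -0.07, 0.06, -0.04 and 0.05 on the log2 scale in hearts 1 to 4, and in the fifth with the longest it was 0.07, -0.04, 0.05 and -0.07. Hearts 1 and 3 were thus higher for long transcripts and hearts 2 and 4 for short ones. Among the genes above, Myl2, Myl3, Tnnt2 and Fabp3 were higher in hearts 2 and 4 than in hearts 1 and 3, and Ryr2 and Atp2a2 the other way round. Removing the trend, an alternative chosen after seeing the data, left 191 genes past 2-fold. The part of transcript length in any single gene's value was not tested.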

How the data were processed

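Whole-heart RNA was purified on RNeasy columns before TruSeq library preparation, per the labels' protocols. The submitters' processing notes name TopHat2, Cufflinks and mm10; versions, annotation and strand setting were not found in the sources. The values that the authors deposited are read as quantile-normalised FPKM, since Cufflinks gives FPKM. Groups came from the labels, and only the 4 wild type columns of 22518 genes were used. Ratios used FPKM + 1, and lists, spreads and percentiles used genes averaging 1 FPKM or more. Of 657 genes in 50 lists, 641 were measured. Where a symbol had several entries, the highest was used. Named were the given markers, both genes of each pair, the 20 highest genes, up to 5 highest and the lowest or most variable members of each list, and the 15 widest and 10 steadiest genes at 10 FPKM or more. Members and lists were chosen with earlier results of these data known. Gene positions came from GENCODE M21 (21739 of 22518 identifiers matched) and promoters from RefSeq on GRCm38.p6. The code that counts genes past 2-fold was checked on made-up data only, and the counts in these hearts were not tested. Python 3.11.15, pandas 2.3.3, numpy 2.4.6 and matplotlib 3.10.9 were used. With 1 group there was no group comparison, and depth could not be recovered. Some members of the gene lists count towards their list and are not reported here by name.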

Additional observations from a re-analysis of the deposited data

Results flagged for a closer look

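Among 335 named genes at 1 FPKM or more, 26 had 1 heart that stood apart from the other 3; chance alone gives about 1 in 20. Named genes were chosen in part for their spread, and 6 of the airway and secretory genes passed 1 FPKM through heart 4 alone, so nothing is read from this number or from how it divides between hearts. Heart 4 was the one apart in 17, heart 2 in 4, heart 3 in 3 and heart 1 in 2. Heart 4 was high for Scgb1a1 (1030.4 FPKM), Scgb3a1 (544), Scgb3a2 (206), Cyp2f2 (53.9), Reg3g (81.8), Wfdc2 (73.2), Cbr2 (129), Aldh1a1 (43.5), Krt19 (19.7), Krt8 (11.4), Msln (21.7) and Tnni1 (106 FPKM). It was low for Eno3 (727 FPKM), Gapdh (1707), Mpc1 (311), Ckmt2 (684) and Rapgef1 (27.6 FPKM), the last within a total spread of under 2%.

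Heart 1 was low for Mb (6459 FPKM), on the shared ladder of values, and high for Cdkn1a (50.5 FPKM). Heart 2 was low for Gata4 (36.5 FPKM) and high for Hey2, a ventricular transcription factor (2.82), Vtn, a pericyte marker (23.5), and Dbh, an enzyme of noradrenaline synthesis (2.69 FPKM). Heart 3 was low for Atp5g3 (2499 FPKM) and Tagln (24.1) and high for Col3a1 (479.6 FPKM).

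Of the 50 lists, 5 had 1 heart apart in summed FPKM. Heart 4 was low for glucose uptake and glycolysis (7004 FPKM) and high for the lung and airway list (1845 FPKM), the epicardial and mesothelial list (105 FPKM) and the granulocyte and mast cell list (38.8 FPKM). Heart 3 was high for the fibroblast list (1966 FPKM).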

How the results depend on the processing

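With a mean of at least 5 FPKM asked for, 7366 genes remained. Without mitochondrially encoded genes and haemoglobins, the top 10 genes held 15.7% and the top 100 held 39.1% of the summed FPKM. The glycolysis median was 179 FPKM with every measured member, and 185 to 226 FPKM with each heart left out, lowest without heart 4. The count of 210 genes past 2-fold became 418 with 0.1 added to each value, 470 with nothing added, 97 at a mean of at least 5 FPKM, 944 at 1.5-fold, 53 at 4-fold, and 63 to 185 with each heart left out, lowest without heart 4. Removing the transcript length trend (191 genes) and leaving out 6 marker lists (187) were alternatives chosen after seeing the data. Of the 23 pair ratios, 4 rose by more than their spread with 0.1 added and none changed direction in any alternative run; with each heart left out, the medians of the other lists run moved by less than the spread between hearts, except for mitochondrially encoded genes, energy transfer, conduction system, smooth muscle, pericyte, adipocyte and skeletal muscle; counting every measured member moved 16 of 42 by more. Lymphocyte, liver and thymus lists, with 2 members each at 1 FPKM, were not run, and the lung and airway list has no median without heart 4, since none of its members then reaches 1 FPKM. No paired analysis was possible because only 1 group was used. Depth is unknown, so low values carry no counting error, and values listed at 0 may be failed estimates.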

Other observations

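Hearts 1 and 4 shared a set of fat cell genes. Ucp1, the uncoupling protein of brown fat, was at 9.53, 0.132, 0.700 and 10.1 FPKM in hearts 1 to 4, Adipoq, adiponectin, at 1.57, 0, 0.209 and 3.32 FPKM, and Cfd, adipsin, at 2.38, 0, 0.179 and 8.49 FPKM. All 3 were at or near 0 in heart 2 and under 1 FPKM in heart 3. Lep, leptin, was under 0.01 FPKM throughout. Cidea, often used as a brown fat marker, was at 34.7, 29.5, 31.4 and 38.6 FPKM, and Fabp4 at 1594, 1553, 1323 and 1832 FPKM. Both were also higher in hearts 1 and 4 than in hearts 2 and 3, but by less, with the highest heart 1.30-fold and 1.39-fold the lowest on FPKM + 1. The hearts high for Ucp1 were those high for the Y chromosome genes and near 0 for Bmp10.

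Immediate early genes, which respond to handling within minutes, had a median CV of 14.4%, against 8.16% for all genes at 10 to 50 FPKM. Of these genes, Dusp1 was at 41.1, 37.6, 36.2 and 35.9 FPKM, Klf2 at 27.8, 32.9, 23.1 and 17.9 FPKM, and 0 of 14 at 1 FPKM or more passed 2-fold, against 1.85% of all genes. Heat shock genes had a median CV of 6.94%, against 7.32% for all genes at 50 to 200 FPKM. The inducible heat shock genes Hspa1a and Hspa1b were under 1.3 FPKM in every heart, while the constitutive Hspa8 was at 625, 615, 641 and 556 FPKM. The clock genes Nr1d1 and Per1 were at 14.3, 11.9, 10.8 and 14.6 and 16.1, 12.6, 11.5 and 14.5 FPKM, and 0 of 13 measured passed 2-fold. The parathyroid and thymus genes Gcm2 and Foxn1 were listed at 0 in all 4 hearts, as was Ly6g of neutrophils.

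Conduction tissue left a faint trace. Shox2 and Isl1, factors of the sinus node, were at 0.663, 0.303, 0.265 and 0.289 and at 0.218, 0.0358, 0.0146 and 0.169 FPKM, both highest in heart 1. Smoc2 and Cacna1g, which are not restricted to that tissue, led the list at 29.1 and 13.4 FPKM. Of 10 genes measured, 4 exceeded 1 FPKM.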
